A study of Mus musculus with 768 samples.

Results

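The genes followed here were 8 G protein-coupled receptors of Schwann cells (SCs): Adgrg6, Adgrb3, Lpar1, S1pr3, Ednrb, F2r, Gpr37l1 and Gabbr1. They were taken by name, with earlier results of these data known. All 8 were found among the 25700 genes of the count table after its Ensembl identifiers were matched to mouse symbols. The cells came from sciatic nerves of mice at postnatal day 60 (P60), an age at which developmental myelination is complete. These mice carried a Cre recombinase that marks the SC lineage, together with a Cre-dependent eYFP reporter in the Rosa26 locus and a DsRed transgene under the beta-actin promoter, and eYFP-positive cells were sorted into single wells. All 768 wells belonged to this one group, without a treatment or a second genotype, and were spread over 2 plates of 384 wells that the labels number as biological replicates. Each plate held cells pooled from 2 male and 2 female mice, so that a plate, and not a cell or a mouse, was the unit of replication. The p-values below set a difference between groups of cells against how far that difference varied between these 2 plates. The estimate of this spread drew on all genes tested. Fits without the plate as a block are named where they are given.

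G protein-coupled receptors cross the membrane 7 times and pass a signal from outside the cell to heterotrimeric G proteins, which in turn raise or lower cyclic AMP, release calcium or act on small GTPases. In SCs this class includes Adgrg6, an adhesion receptor that raises cyclic AMP and is required for SCs to start myelination, and receptors for the lipids lysophosphatidic acid and sphingosine-1-phosphate, which act on the cytoskeleton. Ednrb answers to endothelin peptides, F2r to thrombin, Gabbr1 to GABA and Adgrb3 to C1q-like proteins, while Gpr37l1 is an orphan receptor.

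Requiring at least 1500 detected genes in a cell left 674 cells, 340 on plate 1 and 334 on plate 2. Their medians were 158689 and 452484 reads and 3442 and 2295 detected genes, so plate 2 had more reads but fewer genes per cell. Because no cell annotation was used, cells were clustered anew with the 8 receptors and all related genes listed below left out, and clusters were named from other markers. Clusters 2 and 3 were named mSC-like (myelinating; 152 cells on plate 1 and 72 on plate 2), and clusters 0, 1 and 4 nmSC-like (non-myelinating or Remak, written nm(R)SC-like in the plots; 173 and 249 cells). All 14 mSC markers reached a level of 50 CPM (counts in 1e6 reads of the summed cells) in mSC-like cells of both plates, against 9 and 8 in nmSC-like cells, where their summed level was 12143 and 13087 CPM against 114461 and 113350 CPM. Of the 11 nmSC markers, 9 and 10 reached 50 CPM in nmSC-like cells and 1 and 0 in mSC-like cells. The general SC markers Sox10, S100b, Erbb3, Foxd3 and Cdh19 were read in every cluster of both classes on both plates, although the 10 genes that led cluster 1, and those that led cluster 4, held none of the markers used for naming. In contrast, none of the 8 fibroblast, 5 endothelial or 5 immune markers reached 50 CPM in either class. Of the perineurial and mural markers, Itgb4 lay between 166 and 306 CPM with Msln at 0 in both classes, Slc2a1 reached 58.5 CPM in mSC-like cells of plate 2 and no more than 42.7 CPM elsewhere, and Cspg4 was at 120 and 122 CPM in nmSC-like cells; their part in the results was not tested. Cluster 5 (28 cells, led by Hmgn2, Hmgb2 and Top2a) counted as low in reads over both plates together and stayed unnamed. Its low reads lay on plate 2, where 13 cells had a median of 4081 reads and 1589 detected genes. On plate 1 its 15 cells had medians of 282988 reads and 4990 detected genes, above those of each other cluster on that plate.

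The receptors differed widely in how much RNA they gave. Per kilobase of exon, the levels in nmSC-like cells were 341 ± 52.9 CPM for Gpr37l1 (mean ± SD, n = 2 plates here and below), 129 ± 13.5 for S1pr3, 92.3 ± 23.2 for Ednrb, 83.2 ± 21.3 for Lpar1 and 5.30 ± 1.27 for Adgrg6. Gabbr1 followed at 1.69 ± 1.24, Adgrb3 at 0.958 ± 1.31 and F2r at 0.227 ± 0.322 CPM per kilobase. In this order Ednrb and Lpar1 did not differ beyond the spread of the plates, and nor did Gabbr1 and Adgrb3, or Adgrb3 and F2r. In mSC-like cells Gpr37l1 was again highest, at 132 ± 45.1 CPM per kilobase, and S1pr3 had dropped to 0.907 ± 0.741, the level of Gabbr1 at 0.953 ± 0.0888.

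**Figure D1:**
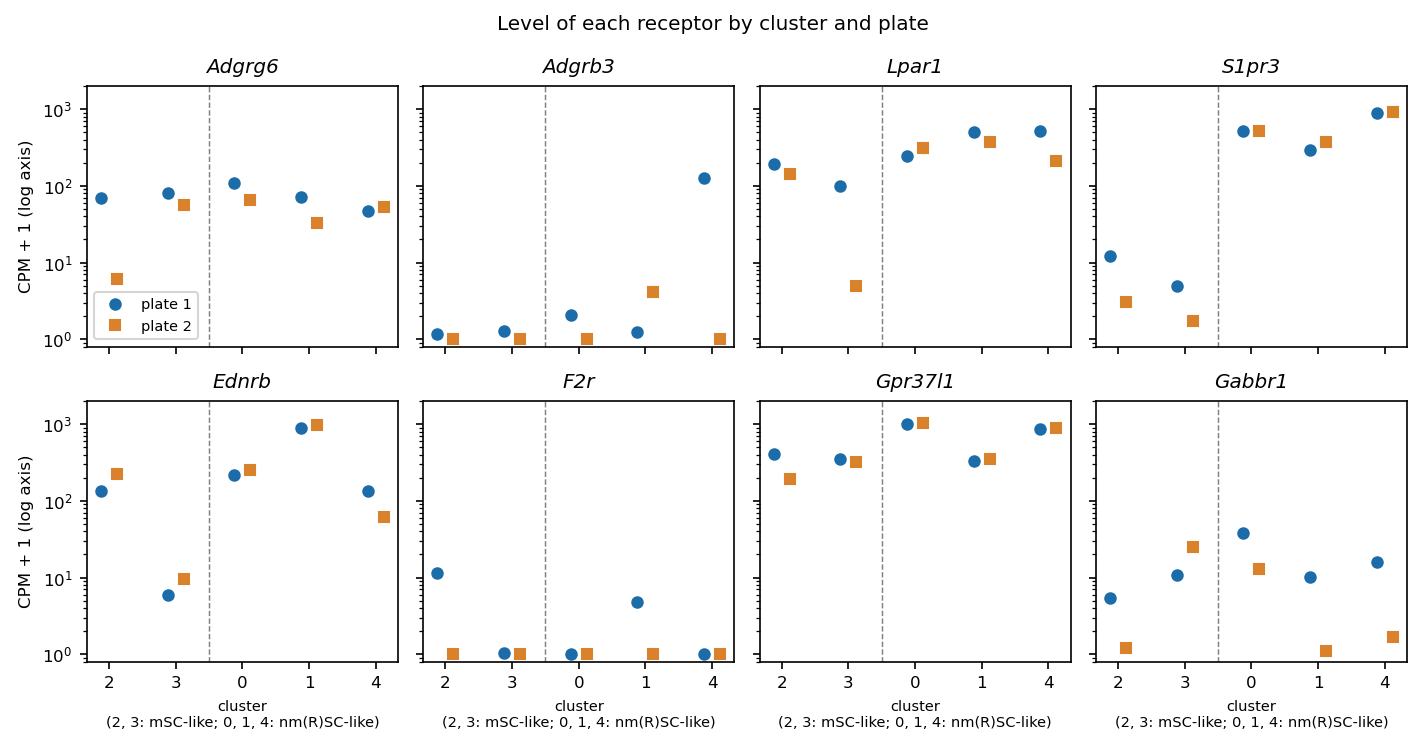
Level of each receptor in CPM plus 1 (log axis) in clusters 2 and 3 (mSC-like) and 0, 1 and 4 (nmSC-like); circles are plate 1 and squares plate 2. S1pr3 lay between 0.742 and 11 CPM in the mSC-like clusters and between 296 and 926 CPM in the nmSC-like clusters, while Ednrb peaked in cluster 1 and Gpr37l1 in clusters 0 and 4.

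To ask which receptors separate myelinating from non-myelinating cells, counts were summed per plate and class and tested with edgeR. Only S1pr3 was called at an adjusted p under 0.05, that is 1 of the 8 receptors, all of which had passed the filter on low counts. Over all genes 346 of 13210 (2.62%) were called, 174 (1.32%) higher in mSC-like cells and 172 (1.3%) higher in nmSC-like cells. Genes outside the lists were tested in classes built without them, which held partly different cells. At an unadjusted p under 0.05, 5 receptors were lower in mSC-like cells and 0 higher, beside 6.74% of all genes that were lower at that limit. DESeq2 called 5 receptors, beside 12.6% of all genes. Both sets of 5 include Adgrb3, most of whose reads came from 1 cell and which is treated below as too rare to compare. The median log2 ratio of mSC-like over nmSC-like cells was -1.32 over the 8 receptors and -0.13 over all genes tested. The receptors were chosen with earlier results of these data known, so these values are no test of an excess over all genes.

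S1pr3, a receptor for sphingosine-1-phosphate that couples to several classes of G proteins, was read almost entirely in nmSC-like cells. Its level was 533 CPM on plate 1 and 618 CPM on plate 2 in nmSC-like cells, against 6.39 and 1.71 CPM in mSC-like cells. It was thus 83.5-fold higher in nmSC-like cells on plate 1 and 362-fold on plate 2, and the plates did not overlap between classes. The fitted log2 ratio was -7.25 ± 0.633 (SE; adjusted p = 0.00169, edgeR's quasi-likelihood test with Benjamini-Hochberg adjustment). The call held under all 10 other settings of the fit, with adjusted p up to 0.016.

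The few S1pr3 reads of mSC-like cells, 200 on plate 1 and 91 on plate 2, were spread thinly: 80 of 152 and 29 of 72 cells held at least 1 read, and a single cell held 59.3% of those on plate 2. To compare cells at an equal number of reads, though not of detected genes, each cell was thinned to 100000 reads and counted as positive from 5 reads on. This left out 52 and 1 mSC-like and 62 and 8 nmSC-like cells with fewer reads. By this measure 1 of 100 and 1 of 71 mSC-like cells were positive for S1pr3 (1.00% and 1.41%, with exact 95% intervals up to 5.45% and 7.60%). In nmSC-like cells it was 65.8% (interval 56.2 to 74.5%) on plate 1 and 68.5% (62.2 to 74.3%) on plate 2. Without thinning, 9 of 152 and 1 of 72 mSC-like cells reached 50 CPM, against 113 of 173 and 168 of 249 nmSC-like cells. Such intervals cover counting error only, since reads without molecular identifiers are not independent molecules.

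The gene lies on chromosome 13, chr13:51408639-51422797 on the plus strand (GENCODE vM21), without exon overlap with another gene. As the only receptor called between the classes, it is shown with the 250 bases before its RefSeq start (GRCm38.p6, chr13:51408368-51408617, plus strand), beside those of Gpr37l1 (chr1:135167682-135167931, minus strand). Gpr37l1 was called below in cluster 1 against the other nmSC-like subsets, but not in the F test over the subsets. The sequences run 5′ to 3′, and capitals were reserved for matches on either strand to ACAANG (SOX-type), TGACG (the core of a cyclic AMP response element) or GCGNGGGCG (EGR-type).

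S1pr3: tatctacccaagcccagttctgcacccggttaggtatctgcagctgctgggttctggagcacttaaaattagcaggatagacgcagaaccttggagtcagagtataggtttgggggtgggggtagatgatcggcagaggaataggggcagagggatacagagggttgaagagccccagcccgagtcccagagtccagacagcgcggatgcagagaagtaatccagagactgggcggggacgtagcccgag
Gpr37l1: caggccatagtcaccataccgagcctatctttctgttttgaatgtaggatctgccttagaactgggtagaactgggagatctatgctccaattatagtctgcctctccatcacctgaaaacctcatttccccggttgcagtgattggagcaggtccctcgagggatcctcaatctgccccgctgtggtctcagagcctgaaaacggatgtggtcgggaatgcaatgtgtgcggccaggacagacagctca

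Neither window held any of these letters, so no base is in capitals. The motifs were present in 36.3%, 17.8% and 4.70% of all 32851 promoter windows of this length. Among the 10 windows of the 8 receptors, TGACG occurred once in that of Ednrb and once in that of Adgrg6, GCGNGGGCG in none, and ACAANG in those of F2r and Gabbr1 and in both downstream windows of Lpar1. GC content was 56.4% for S1pr3 and 52.0% for Gpr37l1, with a median of 52.4% over all windows.

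Lpar1, the best studied receptor for lysophosphatidic acid, was read in both classes. Its level was 422 and 292 CPM in nmSC-like cells of plates 1 and 2 and 130 and 105 CPM in mSC-like cells, so that nmSC-like cells were higher on both plates by 3.23-fold and 2.80-fold. The log2 ratio of -1.41 ± 0.376 did not pass the test over all genes (adjusted p = 0.0816, edgeR). Within the mSC-like class Lpar1 stood at 191 and 143 CPM in cluster 2 and at 97.8 and 3.91 CPM in cluster 3. A single cell held 41.8% of the Lpar1 reads in cluster 3 of plate 1 and 38.0% of those in cluster 2 of plate 2, where the level without it was 91.6 CPM.

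Ednrb, the endothelin receptor that binds all endothelins alike, followed the same order of classes but with a larger gap between plates. It stood at 464 and 324 CPM in nmSC-like cells and at 49.7 and 163 CPM in mSC-like cells, a 9.33-fold difference on plate 1 and 1.98-fold on plate 2. The log2 ratio was -1.92 ± 0.536 (adjusted p = 0.0946, edgeR), and it was -0.57 with classes from a clustering without integration of the plates (adjusted p = 0.711). The reads of mSC-like cells lay in cluster 2, at 133 and 223 CPM, whereas cluster 3 held 4.95 and 8.57 CPM. On plate 2 a single cell of cluster 2 carried 49.8% of its Ednrb reads, and the level there without that cell was 115 CPM. Cluster 2 was not below each nmSC-like subset, with 178 ± 63.2 CPM (mean ± SD, n = 2 plates) against 97.7 ± 51.4 CPM in cluster 4. Cluster 0 gave 233 ± 27.6 CPM and cluster 1 929 ± 54.1 CPM. Cluster 3 made up 90 of 152 mSC-like cells on plate 1 and 19 of 72 on plate 2. The part of this mix of clusters in the class ratios was not tested.

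Gpr37l1, an orphan receptor related to the endothelin receptors, was abundant in both classes. Its level was 689 and 859 CPM in nmSC-like cells against 372 and 227 CPM in mSC-like cells, with a log2 ratio of -1.23 ± 0.384 (adjusted p = 0.145, edgeR). On plate 1 the share of positive cells after thinning was alike in both classes, 80.2% of nmSC-like and 79.0% of mSC-like cells, with intervals of 71.5 to 87.1% and 69.7 to 86.5%. On plate 2 the shares were 61.8% (55.4 to 68.0%) and 31.0% (20.5 to 43.1%), so that the plates differed in how far the classes lay apart.

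**Figure D2:**
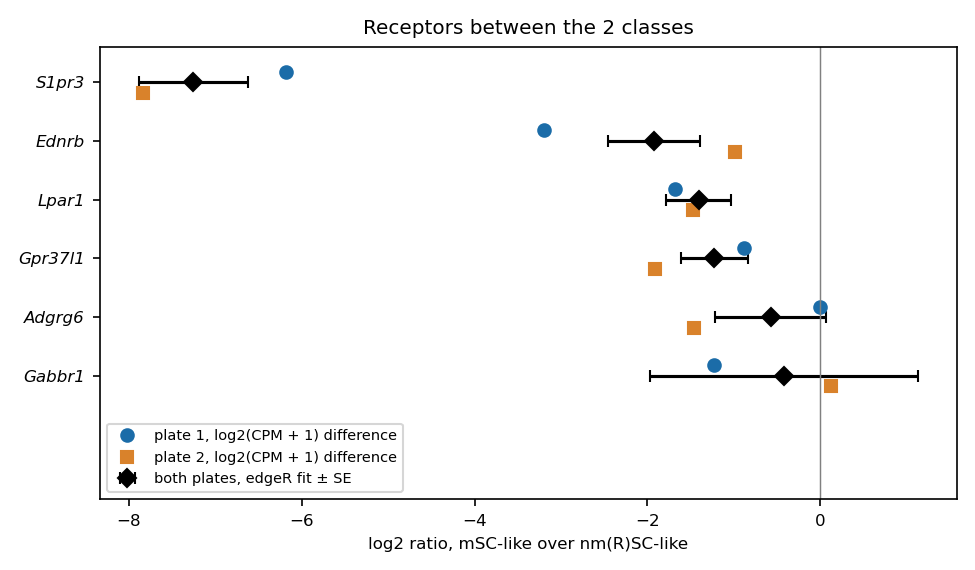
Log2 ratio of mSC-like over nmSC-like cells for 6 receptors; diamonds with bars are the edgeR fit over both plates ± SE, circles and squares the differences of log2(CPM + 1) on plates 1 and 2. S1pr3 stands at -7.25, Ednrb, Lpar1 and Gpr37l1 lie between -1.92 and -1.23, and Adgrg6 and Gabbr1 have at least 1 plate at or above 0; Adgrb3 and F2r are left out because single cells held nearly all of their reads.

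Adgrg6, the adhesion receptor whose loss blocks myelination in mice, showed no difference larger than its spread. Its level was 75.7 and 53.9 CPM in nmSC-like cells and 75.8 and 18.9 CPM in mSC-like cells, so the classes were equal on plate 1. The log2 ratio was -0.58 ± 0.641 (adjusted p = 0.854, edgeR). After thinning, 28.8% and 13.3% of nmSC-like cells and 22% and 5.63% of mSC-like cells were positive. Plate 1 was higher in each class, and a single cell held 60.6% of the reads of mSC-like cells on plate 2.

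The other 3 receptors were read too rarely to compare. F2r, the thrombin receptor PAR1, had 173 reads in all cells; the 114 in cluster 2 and the 58 in cluster 1 of plate 1 came almost entirely from 1 cell each (99.1% and 98.3%), and no read fell in either class of plate 2. Adgrb3, a brain adhesion receptor for C1q-like proteins, had 1495 reads, 1320 of them in cluster 4 of plate 1, where 1 cell held 95.1%; without it the level there fell from 127 to 8.33 CPM. After thinning, 0 of 100 and 0 of 71 mSC-like cells were positive for Adgrb3. With a count of 0 taken to allow up to 3, shares of up to 3% and 4.23% remain possible. This limit is narrower than the exact 95% intervals used above. Gabbr1, the ligand-binding subunit of the GABA-B receptor, gave 19.9 and 6.29 CPM in nmSC-like and 7.89 and 6.91 CPM in mSC-like cells, with 16 and 10 nmSC-like cells holding any read. The adjusted p-values of these receptors (edgeR) were 0.982 for F2r, 0.169 for Adgrb3 and 0.993 for Gabbr1.

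The 3 nmSC-like subsets were then compared with each other. Cluster 0 (63 and 126 cells) was led by Apoe, Scn7a and F3, cluster 1 (72 and 57 cells) by Tagln2, Rpsa and S100a4, and cluster 4 (38 and 66 cells) by Aldh1a1, Apoe and Serping1. The summed nmSC markers were lower in cluster 1 (1900 and 1993 CPM) than in cluster 0 (5988 and 4476 CPM) or cluster 4 (5794 and 3603 CPM), and the part of this in the results below was not tested. In an F test over the 3 subsets 0 of 8 receptors were called at an adjusted p under 0.05, against 16 of 13349 genes (0.12%), but 3 receptors were at an unadjusted p under 0.05, beside 1017 of all genes (7.62%), and DESeq2 called 2 receptors and 363 of all genes (2.72%). Unlike the receptors, the genes of this background were free to take part in defining the clusters. When each subset was set against the mean of the others, clusters 0 and 4 had 1 called gene each (0.00749%) and no receptor. Cluster 1 had 19 genes higher (0.142%) and 34 lower (0.255%), 1 of them a receptor.

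That receptor was Gpr37l1. It stood at 325 and 354 CPM in cluster 1, below both other subsets on both plates, which gave 999 and 1017 CPM in cluster 0 and 856 and 898 CPM in cluster 4. Plates were close within each subset and cluster 1 did not overlap with the others, with a log2 ratio of -1.69 ± 0.292 (adjusted p = 0.0365, edgeR). The call was lost with cells thinned to equal depth (adjusted p = 0.172) and without the plate as a block (adjusted p = 0.308). The level in cluster 1 was within the range of the mSC-like clusters, 191 to 408 CPM. Positive cells made up 71.7% and 44.0% of cluster 1, against 81.3% and 58.7% of cluster 0 and 96.2% and 81.5% of cluster 4.

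Ednrb was highest in cluster 1. Its level was 890 and 967 CPM in cluster 1, 213 and 252 CPM in cluster 0 and 134 and 61.3 CPM in cluster 4, without overlap between cluster 1 and the others. The log2 ratio of cluster 1 over the other subsets, 2.37 ± 0.453, missed the threshold (adjusted p = 0.0637, edgeR), and it passed with DESeq2, without the filter on low counts and at a resolution of 0.8. In cluster 1, 83.0% (interval 70.2 to 91.9%) and 72.0% (57.5 to 83.8%) of cells were positive. In cluster 0 it was 28.1% and 31.7%, and in cluster 4 it was 42.3% and 24.6%. On plate 2 at least 1 Ednrb read was found in 247 of 249 nmSC-like and 71 of 72 mSC-like cells, and in all 50 cells below the gene minimum, so that a single read did not mark a cell there.

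S1pr3 was highest in cluster 4, at 897 and 926 CPM, intermediate in cluster 0, at 523 and 520 CPM, and lowest in cluster 1, at 296 and 370 CPM. This order was the same on both plates, but neither the F test (adjusted p = 0.542, edgeR) nor cluster 4 against the others (log2 ratio 1.27 ± 0.393, adjusted p = 0.714) passed. In cluster 4 all 26 thinned cells of plate 1 and 61 of 65 on plate 2 were positive, while in cluster 1 it was 49.1% and 54.0%.

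**Figure D3:**
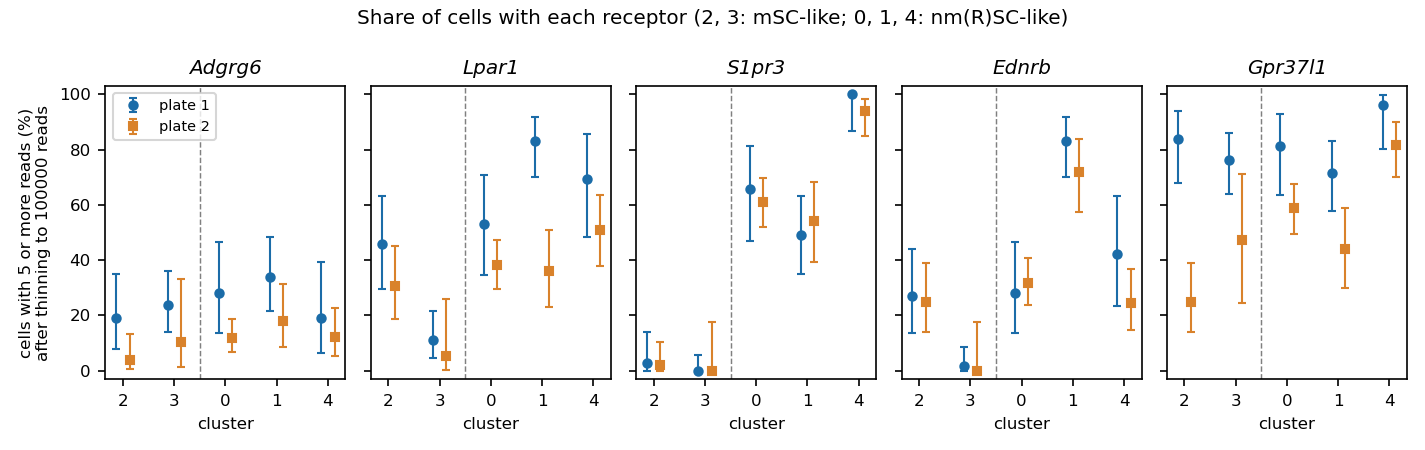
Share of cells with 5 or more reads of a receptor after thinning to 100000 reads, by cluster (2 and 3 mSC-like, 0, 1 and 4 nmSC-like); circles are plate 1, squares plate 2, and bars exact 95% Clopper-Pearson intervals. For S1pr3 at most 2.70% of cells in an mSC-like cluster and at least 49.1% in an nmSC-like cluster were positive, and for Gpr37l1 plate 2 lay below plate 1 in each cluster.

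Neither Lpar1 nor Adgrg6 kept the full order of the subsets on both plates. Lpar1 was at 241, 499 and 524 CPM in clusters 0, 1 and 4 of plate 1 and at 312, 371 and 213 CPM on plate 2 (F test, adjusted p = 0.929, edgeR). Adgrg6 was at 108, 69.9 and 45.8 CPM on plate 1 and at 63.5, 31.4 and 51.3 CPM on plate 2 (adjusted p = 0.846), with cluster 0 highest on both. On plate 2, however, 1 cell held 45.5% of the Adgrg6 reads of cluster 0, and the level without it was 35.6 CPM, below that of cluster 4.

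Seen cell by cell, both S1pr3 and Ednrb were positive in 36 of 111 nmSC-like cells on plate 1 and 54 of 241 on plate 2. S1pr3 alone was positive in 37 and 111 of these cells, and Ednrb alone in 28 and 38. In cluster 4, 57.7% and 72.3% of cells were positive for S1pr3 alone and 0% and 3.08% for Ednrb alone, with both in 42.3% and 21.5%. Every thinned cell of cluster 4 on plate 1 was positive for S1pr3, so none could hold Ednrb alone. In cluster 1, 11.3% and 16% were positive for S1pr3 alone, 45.3% and 34.0% for Ednrb alone, and 37.7% and 38.0% for both. Cluster 0 held 50% and 44.4% of cells with S1pr3 alone and 12.5% and 15.1% with Ednrb alone, with both in 15.6% and 16.7%. Over all nmSC-like cells Ednrb was found in 49.3% of S1pr3-positive and 73.7% of S1pr3-negative cells on plate 1, and in 32.7% and 50% on plate 2. Within cluster 1 these shares were 76.9% and 88.9% on plate 1 and 70.4% and 73.9% on plate 2. Within cluster 0 they were 23.8% and 36.4% on plate 1 and 27.3% and 38.8% on plate 2. Cluster 4 held too few S1pr3-negative cells to compare. As cells of a plate share their mice and their subset, these are descriptions without a test.

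**Figure D4:**
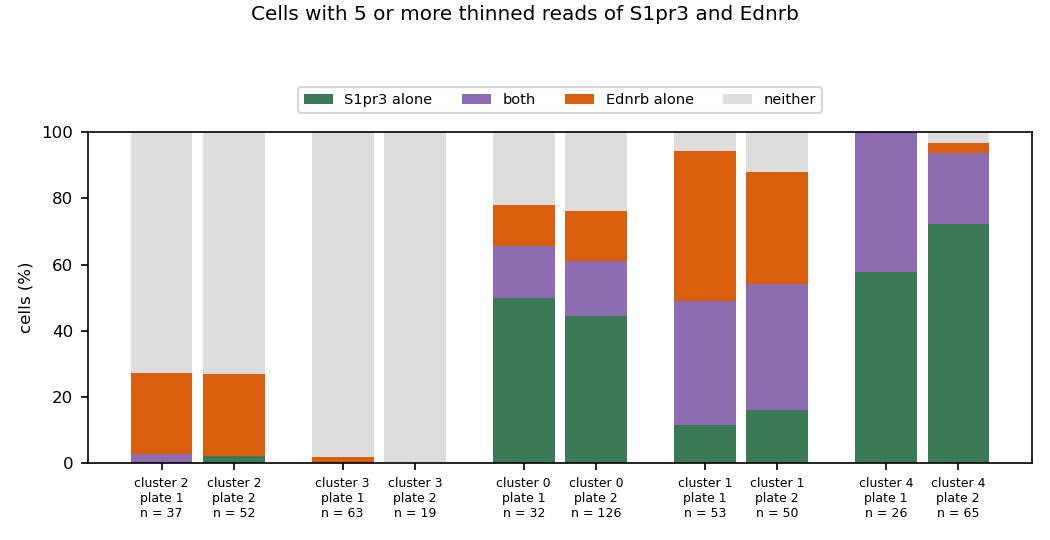
Cells positive for S1pr3 alone, for both receptors, for Ednrb alone or for neither (percent of thinned cells, n under each bar) by cluster and plate. In cluster 4 no more than 3.08% of cells held Ednrb alone, in cluster 1 at least 34.0% did, and in cluster 3 at least 98.4% held neither.

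On both plates nmSC-like cells carried more of these receptors per cell than mSC-like cells. The median number of receptors per thinned cell was 3 on plate 1 and 2 on plate 2 in nmSC-like cells and 1 on both plates in mSC-like cells. At least 3 were found in 76.6% and 42.7% of nmSC-like and in 13% and 2.82% of mSC-like cells, and none in 1.80% and 4.98% against 12% and 36.6%. Among the subsets, cluster 4 had the highest share at 3 or more, 88.5% and 61.5% of cells. It was 83.0% and 40% in cluster 1, close to cluster 4 on plate 1, and 56.25% and 34.1% in cluster 0.

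By the likeness of profiles over 12 points (6 clusters on 2 plates, log2(CPM + 1) centered within plate, 12225 genes searched), the genes closest to S1pr3 were Sphk1 (r = 0.991), Mrgprf and Lbh. Sphk1 encodes sphingosine kinase 1, which makes the ligand of S1pr3. Its level was 29.1 and 23.5 CPM in nmSC-like and 0.862 and 0.0563 CPM in mSC-like cells (adjusted p = 0.108, edgeR), and in clusters 0 and 4 single cells held between 46.9% and 73.9% of its reads. The genes closest to Gpr37l1 were Cmtm5 (r = 0.988), Plxdc2 and Rabac1, those closest to Ednrb were Rpl32 (r = 0.952), Itgb3 and Specc1, and those closest to Lpar1 were Cttn (r = 0.97), Adk and Rmnd5b. For Adgrg6 they were Decr2 (r = 0.977), Wwox and Iws1. For F2r, Gabbr1 and Adgrb3 the leading genes were Gm47690 (r = 0.998), Zfpm1 (r = 0.904) and Afg1l (r = 0.883), on profiles set by a few cells. The points share plates and cells, and each r is the highest of a search over all genes, so they are given without a p.

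The closest relatives of the receptors were read little. Of 23 relatives, 10 had no read in either class of either plate, 8 passed the filter on low counts, and 0 were called by edgeR. At an unadjusted p under 0.05 (edgeR) there was 1, beside 12.5% of all genes, and DESeq2 called 2, beside 12.6%. The median log2 ratio of the 8 was -1.89. The highest, Adgrg1, an adhesion receptor, gave 30.8 and 42.3 CPM in nmSC-like and 10.8 and 5.41 CPM in mSC-like cells, followed by the lysophosphatidic acid receptor Lpar4 with 26.3 and 25 against 16.2 and 2.91 CPM. Gabbr2, the partner that Gabbr1 needs to form a GABA-B receptor, had no read.

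Among 30 genes for ligands and for the enzymes that make or remove them, 20 were tested, 2 were higher in mSC-like cells and 2 lower, with a median log2 ratio of 0.06. The called genes were 20% of those tested, beside 2.62% of all genes, in a list chosen with earlier results known. At an unadjusted p under 0.05 (edgeR) there were 8, beside 12.5% of all genes, and DESeq2 called 7, beside 12.6%. Prnp, whose prion protein is an agonist of Adgrg6, fell in mSC-like cells from 3857 and 4948 CPM to 888 and 827 CPM (log2 ratio -2.17 ± 0.344, adjusted p = 0.00952, edgeR). Prnp was also the 1 gene of all lists called among the subsets (F test, adjusted p = 0.00277), at 1442 and 1430 CPM in cluster 1 against at least 5260 CPM in clusters 0 and 4. Ece1, an enzyme that releases active endothelin, was lower in mSC-like cells, at 37.0 and 135 CPM against 284 and 588 CPM (log2 ratio -2.35 ± 0.403, adjusted p = 0.0128). Mme, the peptidase neprilysin that degrades endothelin, rose in mSC-like cells to 124 and 36.5 CPM from 0.576 and 0.0194 CPM (log2 ratio 9.23 ± 1.14, adjusted p = 0.00381), with single cells holding 72.8% and 96.4% of its reads in clusters 2 and 3 of plate 2. Plpp1, a phosphatase that removes lysophosphatidic acid, rose to 485 and 596 CPM from 187 and 156 CPM (log2 ratio 1.84 ± 0.37, adjusted p = 0.0236). Without the plate as a block Mme kept its call (adjusted p = 0.0381), whereas Prnp (0.122), Plpp1 (0.136) and Ece1 (0.275) lost theirs. The genes of the endothelins themselves were near 0, with Edn2 and Edn3 without a read and Edn1 at up to 0.607 CPM.

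Downstream of the receptors few genes were called, as was so over all genes (2.62%). Of 13 G protein alpha subunits 11 were tested and 0 were called by edgeR or DESeq2, also at an unadjusted p under 0.05, with a median log2 ratio of -0.27. Gnas, the stimulatory subunit, stood at 494 and 444 CPM in nmSC-like and 386 and 303 CPM in mSC-like cells, and Gnai1, an inhibitory subunit, at 89.5 and 246 against 202 and 199 CPM. In the cyclic AMP pathway, 1 of 19 tested genes of 22 was called, and the median log2 ratio was -0.10. This was Rapgef3, the cyclic AMP sensor Epac1, which was higher in mSC-like cells at 44.6 and 17.2 CPM against 0.288 and 0.0387 CPM (log2 ratio 8.16 ± 1.63, adjusted p = 0.0227, edgeR), with 84.7% of its reads in cluster 3 of plate 2 from 1 cell. Among 13 Gq and G12/13 effectors 11 were tested, with a median of -0.15, and Plcb1, a phospholipase C, was higher in mSC-like cells at 47.6 and 68.3 CPM against 1.36 and 8.81 CPM (log2 ratio 4.21 ± 0.953, adjusted p = 0.0416). A single cell held 97.1% of Plcb1 reads in cluster 3 of plate 2. Neither Rapgef3 (adjusted p = 0.056) nor Plcb1 (0.178) was called without the plate as a block. Of 24 receptor kinases, arrestins and RGS proteins 15 were tested and 0 were called by edgeR, with a median of -0.06. At an unadjusted p under 0.05 (edgeR) there were 3, beside 12.5% of all genes, and DESeq2 called 3, beside 12.6%. The highest of the 24 were Rgs11 (45.1 and 62.6 CPM in mSC-like, 0.262 and 16.3 CPM in nmSC-like cells) and Rgs19 (20.9 and 0.864 against 22.6 and 44.4 CPM).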

How the data were processed

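Reads of Smart-Seq2 libraries from single sorted wells were aligned and counted per gene by the authors. The submitters' processing notes name bcl2fastq, STAR 2.6.1c, featureCounts and build GRCm38.p5, while the study's methods name another STAR version and a human build, so the annotation release behind the counts is uncertain. The authors deposited raw read counts (25700 genes by 768 wells, without molecular identifiers), and these counts were used as deposited. Total depth, in units of 1e6 reads, was 74.3 on plate 1 and 209 on plate 2. Symbols and exon lengths came from GENCODE vM21 (25664 genes matched). The 8 receptors, the gene lists and the markers were chosen with earlier results of these data known.

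Cells with 1500 or more genes were scaled to 100000, log-transformed, integrated over plates (Seurat 5.3.0, canonical correlation, 12 dimensions) and clustered at a resolution of 0.5 on 5214 variable genes. Doublets were not called, each well having received a single sorted cell. A cluster took the class with the higher mean marker score if at least 3 of its markers reached 50 CPM, and stayed unnamed if it had few reads and no marker among its 10 leading genes. The 133 listed genes took no part in clustering. Other genes were tested in classes built without them, using the other part of the genes after a seeded split into 2 parts. Of the 646 and 642 cells named both there and in the full clustering, 94.7% and 97.0% took the same class. On plate 1 the nmSC-like class held 212 and 167 cells by the 2 parts, against 173 by the full clustering. These parts did not return each nmSC-like subset, so the background among subsets used the full clusters. The p-values do not account for classes having been made from the same cells.

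Counts were summed per plate and class (or subset) and fitted with edgeR 4.0.16 (R 4.3.3; TMM factors, filterByExpr, quasi-likelihood test, plate as a block, Benjamini-Hochberg over all genes tested, limit 0.05). Both classes of a plate come from the same mice, which pairs them; over 5848 genes at 10 CPM or more the plate differences of both classes correlated with r = 0.314. DESeq2 1.42.0 was an alternative, beside other normalization, filters, cell minimums, thinning and subtraction of 0.1% read exchange on plate 1. Fits were tested on simulated data. CPM are counts in 1e6 reads of a summed group; plate ratios use a pseudocount of 1 CPM. Named genes were the 8 receptors, up to 4 called genes per list and direction, or the 2 highest where none was called, and the 3 genes most like each receptor. Promoter sequences are from RefSeq (GRCm38.p6). The authors' cell annotation was not used here. The promoter that drives Cre and 1 of the general SC markers are not reported here.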

Additional observations from a re-analysis of the deposited data

Results flagged for a closer look

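Cells outside the comparisons also held receptor reads, in amounts above the 3 counts that a count of 0 allows on both plates. In the unnamed cluster 5 (15 and 13 cells, led by Hmgn2, Hmgb2 and Top2a), the pooled level was 509 CPM for Ednrb, 334 CPM for Lpar1, 125 CPM for S1pr3 and 26.7 CPM for Gabbr1. In cells with fewer than 1500 detected genes (44 and 50 cells), it was 398 CPM for Ednrb, 388 CPM for Lpar1, 238 CPM for S1pr3, 121 CPM for Gpr37l1 and 10.5 CPM for Adgrg6. Below that gene number on plate 2, a single cell held 93.4% of the Lpar1, 86% of the S1pr3 and 93.5% of the Gpr37l1 reads, and without it the levels were 35.9, 35.1 and 6.01 CPM. The 13 cells of cluster 5 on plate 2 held 186928 reads in all, and the 111 Gabbr1 reads there came from 1 cell.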

How the results depend on the processing

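The S1pr3 ratio stayed called under all 10 other settings of the fit, between -7.91 and -6.78. The number of receptors called between classes was 5 with DESeq2, 2 with cells thinned to 100000 reads and 2 with library size scaling (a setting chosen after seeing the data, which moved the median of all genes from -0.13 to -0.29 and turned no receptor). DESeq2 added Ednrb (-1.88), Lpar1 (-1.37), Gpr37l1 (-1.18) and Adgrb3 (-6.99), thinning added Ednrb (-2.29) and library size scaling Lpar1 (-1.59). Gabbr1 turned to 1.72 with a minimum of 2500 genes. Without the highest cell of each class and plate, also chosen after seeing the data, the Lpar1 ratio was -1.97. Leaving out each plate gave ratios with no test, and counts of calls could not be had. For S1pr3 they were -7.84 without plate 1 and -6.18 without plate 2.

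Over all genes, 1669 were called with DESeq2, 565 with relative log expression factors, 585 without the low-count filter, 175 without the plate as a replicate block, 187 with a minimum of 2500 genes and 534 after thinning. The listed genes called, 6 in the reported fit, were 18 with DESeq2, 1 without the block, 2 with a minimum of 2500 genes and 3 without integration; Mme was the gene left without the block. Among subsets DESeq2 called 2 receptors, and 363 of all genes against 16 in the reported fit. For cluster 1 the ratio of Gpr37l1 was -1.69 without the block and -1.33 after thinning, and was not called in either. That of Ednrb was called with DESeq2 (2.36), without the filter (2.36) and at a resolution of 0.8 (2.25). The cause was not tested in any of these. Each fit among subsets used clusters of integrated cells at the same gene minimum. Without integration, nmSC-like cells split mainly by plate. The cluster led by Apoe then held 15 cells of plate 1 and 231 of plate 2, and that led by Ptn 156 and 25. A cluster led by Aldh1a1 was present with a minimum of 1000 genes, but not with one of 2500 genes. How far the subset results depend on these choices was not tested.

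From 1 read on, shares of positive cells rose in mSC-like cells to 43.0% for Lpar1, 24.95% for S1pr3, 57.7% for Ednrb, 8.32% for Gabbr1 and 2% for Adgrb3, and in nmSC-like cells to 76.0% for S1pr3, 73.6% for Ednrb and 2.22% for Adgrb3 (means of the plates). From 10 reads on they were 20.6% for Lpar1 and 3.20% for Gabbr1 in mSC-like and 61.1% for S1pr3 in nmSC-like cells, and at 50000 reads 22.4%, 2.67% and 61.7%. With a minimum of 1000 genes Lpar1 was at 23.6% in mSC-like cells. With one of 2500 genes it was at 23.7%, S1pr3 at 1.83% there and at 72.0% in nmSC-like cells, and Adgrb3 at 2.34% in the latter.

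With 2 plates of different depth, differences near the spread of the plates were not detectable, and receptors at a few CPM rest on single cells.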
